A study of Mus musculus with 6 samples.

Results

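*Kitl* and the 100 kb on each side of it held 47 of the 18333 differentially methylated regions (DMRs) listed between infant and young adult mouse lung endothelial cells (EC). A DMR belonged to the locus when its midpoint lay in mm10 chr10:99915821-100200416, which is the gene body (chr10:100015821-100100416, plus strand) with both flanks. The gene body held 44 of these DMRs, the upstream flank 2 and the downstream flank 1. All 44 in the body had a lower methylation level in young adults (called losses here), as did 1 in each flank, and the remaining DMR, in the upstream flank, had a higher one (a gain). Over the whole list, 45.9% of the DMRs were losses and 54.1% were gains. Of the DMRs in bodies of protein-coding genes 58.8% were losses, and of those outside them 76.3% were gains. The direction and size of the group difference had put these regions on the list, so the levels below describe them and carry no test.

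*Kitl* encodes Kit ligand, also called stem cell factor, which binds and activates the receptor tyrosine kinase Kit. EC are a known source of Kit ligand, which sustains hematopoietic stem cells in the bone marrow niche and acts on mast cells, melanocytes and germ cells. The ligand is made as a membrane protein, and alternative splicing of an exon that carries a cleavage site decides how readily it is shed. Methylation of cytosine in CpG dinucleotides is commonly low at active promoters and enhancers and high over the rest of the genome.

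The groups were 3 samples of EC from infant mice (8 to 10 days old) and 3 from young adult mice (8 to 12 weeks old), all from lungs of C57BL/6N mice, which the study's methods describe as female. The cells were sorted as PTPRC-, LYVE1-, LY76-, PDPN- and propidium iodide-negative and CD31+CD34+, which leaves out blood cells and lymphatic EC by the surface proteins stained. Their DNA was read by T-WGBS, a whole genome bisulfite method in which a transposase fragments the DNA (tagmentation) and bisulfite then converts unmethylated cytosine. The list gives the authors' mean methylation level per DMR and group and no level per sample, so no spread between the 3 samples can be set beside a difference. The depth behind each level is unknown. An intermediate level in such a bulk sample can mean methylation in part of the cells or on part of the alleles, and these cannot be told apart.

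The sequences that the description returns to are printed first, as 1 strand of the mm10 reference (plus strand) with every CpG in capitals. They are the 3 flank DMRs and, from the gene body, those with the largest difference, the lowest young adult level, the highest infant level and the shortest distance to an exon.
Upstream loss, chr10:99931111-99931308: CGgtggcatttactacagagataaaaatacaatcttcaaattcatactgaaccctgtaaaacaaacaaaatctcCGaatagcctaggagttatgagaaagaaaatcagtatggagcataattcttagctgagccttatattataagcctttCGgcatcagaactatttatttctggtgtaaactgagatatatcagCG
Upstream gain, chr10:99957493-99957588: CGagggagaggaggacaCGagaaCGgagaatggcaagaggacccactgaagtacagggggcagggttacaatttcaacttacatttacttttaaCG
Largest difference in the body, intron 1, chr10:100045641-100045837: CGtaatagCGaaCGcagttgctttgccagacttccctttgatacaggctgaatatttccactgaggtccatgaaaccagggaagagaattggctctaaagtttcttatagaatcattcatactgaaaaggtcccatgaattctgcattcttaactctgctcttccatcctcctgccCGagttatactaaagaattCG
Lowest young adult level in the body, intron 2, chr10:100054853-100054912: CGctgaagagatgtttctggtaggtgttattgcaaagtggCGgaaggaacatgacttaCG
Highest infant level in the body, intron 3, chr10:100072386-100072424: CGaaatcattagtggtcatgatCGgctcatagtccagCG
Shortest distance to an exon, intron 7, chr10:100088041-100088107: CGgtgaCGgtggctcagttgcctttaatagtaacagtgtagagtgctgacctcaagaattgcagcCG
Downstream loss, chr10:100153471-100153562: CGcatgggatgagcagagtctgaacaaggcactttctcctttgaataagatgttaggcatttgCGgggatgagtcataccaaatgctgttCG

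The 44 DMRs of the gene body went from a high to an intermediate methylation level. Their infant levels ran from 35.9% to 92.5% with a median of 76.9%, and their young adult levels from 10.7% to 64.1% with a median of 41.0%. The difference of the group means, young adult minus infant, ran from -45.1 to -21.9 percentage points with a median of -35.1. In infants 31 of the 44 lay above 70%. In young adults 30 of the 44 lay between 30% and 60%, and 5 lay below 20%. The DMRs of the body differed more in their levels, with a standard deviation over the 44 of 13.0 points in infants and 13.2 in young adults, than in the size of the difference, with one of 6.68.

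The largest difference lay in intron 1, 29.9 kb after the transcription start site (TSS), where the level was 80.7% in infants and 35.7% in young adults over 5 CpGs (fell by 45.1 percentage points). A DMR of 3 CpGs at 26.1 kb came next, with 71.3% in infants and 26.3% in young adults. The smallest difference in the body lay at the start of intron 2, 36.3 kb after the TSS, with 79.0% in infants and 57.1% in young adults. It was thus still larger than the 20 percentage points set as a stricter threshold, and each of the 44 passed it.

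The lowest young adult level was that of the 60 bp DMR at 39.1 kb in intron 2, which held 3 CpGs and went from 52.4% in infants to 10.7% in young adults. A DMR at 24.6 kb in intron 1 had the lowest infant level of the body (35.9%) and a young adult level of 12.1%. The highest levels of both groups belonged to 1 DMR at 56.6 kb in intron 3, which had 92.5% in infants and 64.1% in young adults. DMRs that were high in infants were thus also high in young adults. Across the 44 DMRs the group levels had a Pearson correlation of 0.87 and a Spearman correlation of 0.84, and across all 8422 losses a Spearman correlation of 0.89. DMRs share the same 6 samples, and the list keeps only regions with a sizeable difference, so these correlations describe the list.

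**Figure D1:**
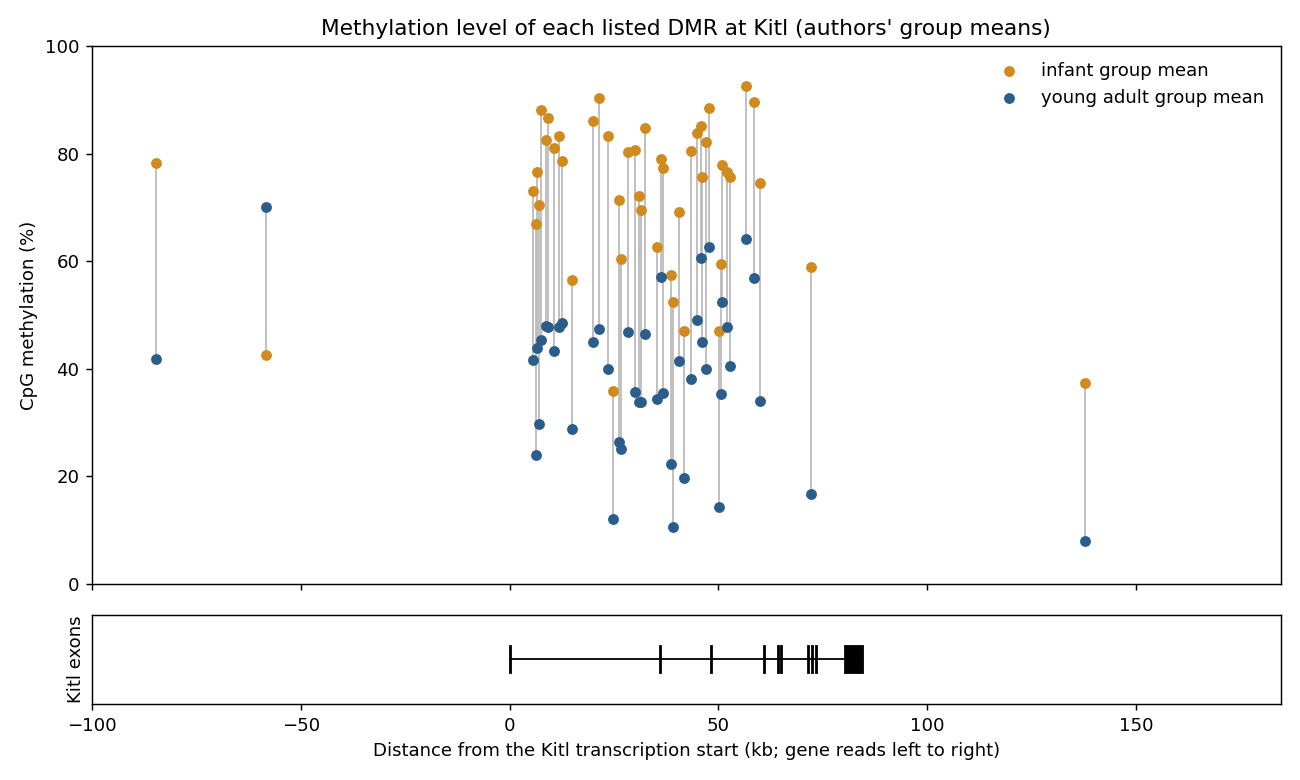
Methylation level (%) of each of the 47 DMRs at *Kitl* in infants (orange) and young adults (blue), against the distance of its midpoint from the TSS in kb, with the exons as black boxes underneath. Points are group means with no error, since no level per sample was listed, and grey lines join the groups of 1 DMR. The blue point lies below the orange one in all 44 DMRs of the body and above it at the gain 58.3 kb upstream.

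The losses filled the first introns and ended before the last exons. Intron 1 (35.8 kb) held 23 of them, intron 2 (12.1 kb) 12, intron 3 (12.6 kb) 8 and intron 7 (0.70 kb) 1, whereas introns 4, 5, 6, 8 and 9 and all 10 exons held none. Exon 6, the exon known to carry the main cleavage site of the ligand, and the introns on both sides of it were therefore without a listed DMR. Between the TSS and the first loss lay 5.30 kb with 124 CpGs. The stretch within 1 kb of the TSS, with 5.30 CpGs per 100 bp, held no DMR. The last loss ended 12.3 kb before the end of the gene, and the 130 CpGs in that stretch were in no DMR. A CpG outside the list may have been measured and unchanged, or may have had too little coverage for the authors' filter. It may also have changed by less than 10% or outside a run of 3 or more changed CpGs. The list does not separate these cases.

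Relative to the CpGs available, intron 2 was the most densely covered of the first introns. Its 12 DMRs held 49 of its 104 CpGs (47.1%), those of intron 1 held 118 of 425 (27.8%), and those of intron 3 held 36 of 116 (31.0%). The levels were alike in these introns. The median infant level was 78.5% in intron 1, 78.1% in intron 2 and 76.1% in intron 3, and the median young adult level was 41.7%, 40.7% and 44.1%. The median difference was -37.7, -32.7 and -30.7 percentage points, with standard deviations over the DMRs of an intron of 5.92, 7.67 and 5.40.

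In steps of 10 kb from the TSS, the first 6 steps held 7, 5, 7, 8, 8 and 8 losses. The seventh step held 0 losses on 57 CpGs and the eighth 1 on 98 CpGs. Over the first 6 steps, losses per 100 CpGs thus ranged from 4.07 in the first, which includes the CpG-rich TSS, to 9.64 in the step from 40 to 50 kb. The median difference of a step was -43.1 percentage points from 20 to 30 kb and -29.1 from 40 to 50 kb. Distance from the TSS and the difference had a Spearman correlation of 0.27 over the 44 DMRs, which is weak.

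**Figure D2:**
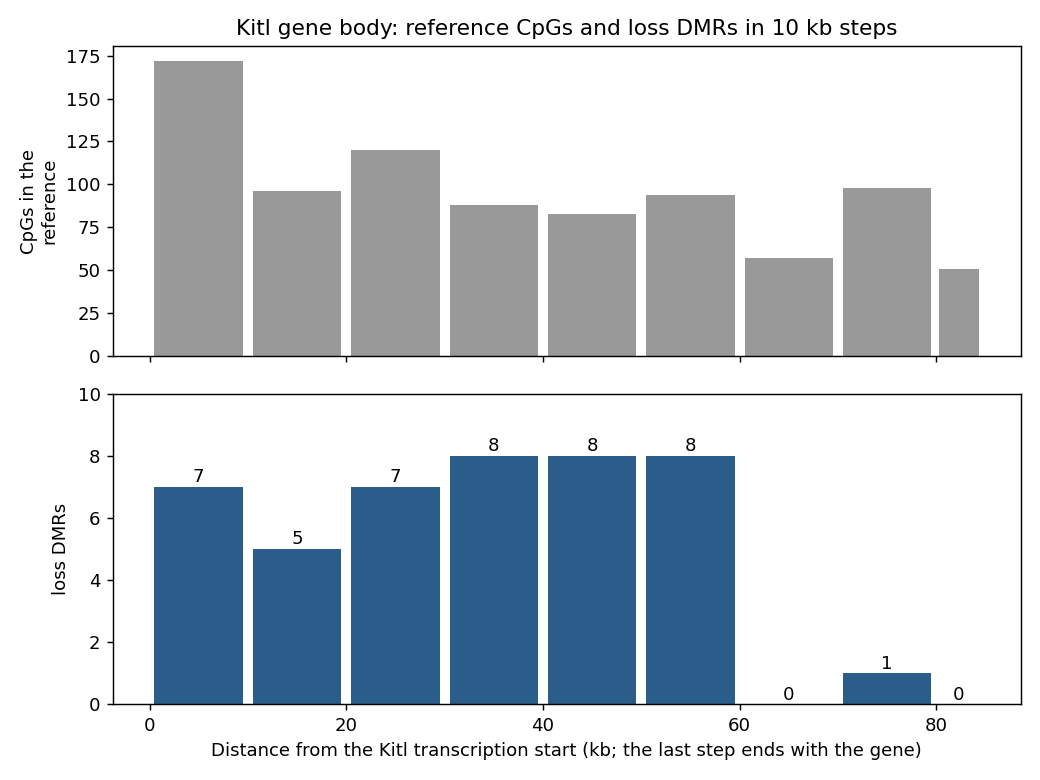
The *Kitl* gene body in steps of 10 kb from the TSS (the last step is shorter, as the gene ends at 84.6 kb), with the number of CpGs in the reference in the upper bars and the number of loss DMRs in the lower bars. Losses number 5 to 8 in each of the first 6 steps and 1 over the last 3 steps, which still hold 57, 98 and 51 CpGs.

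The losses stood close together. Of the 43 distances from the end of 1 body DMR to the start of the next, 24 were at most 1000 bp, and the median was 920 bp (56 to 12264 bp). The longest of them separates the last DMR of intron 3 from the DMR of intron 7, and no other was over 5000 bp. Joining losses at most 500 bp apart left 30 blocks. The widest block, chr10:100021125-100023305 in intron 1, joined 5 DMRs with 20 CpGs over 2181 bp and had a level of 74.5% in infants and 38.1% in young adults, weighted by CpGs. Neighbours were little alike in level: the infant level of a DMR and that of the next had a Spearman correlation of 0.22 over 43 pairs, and the differences one of -0.0045.

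The DMR nearest to an exon was the 1 in intron 7, whose last base lay 46 bp before exon 8. Its level was 58.9% in infants and 16.7% in young adults. The next nearest lay 125 bp after exon 2 and was the DMR with the smallest difference. The median distance from a body DMR to an exon was 4602 bp.

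The flanks held few DMRs for their length. The upstream flank had 915 CpGs in the reference and 8 of them in DMRs (0.87%), the downstream flank had 733 and 3 of them in DMRs (0.41%), and the gene body had 859 and 206 of them in DMRs (24.0%). The 58.2 kb between the last upstream DMR and the TSS held none. The upstream loss, 84.6 kb before the TSS, had 78.3% in infants and 41.8% in young adults, close to the medians of the body. It lies beyond the end of the long noncoding RNA *Gm35437*, which crosses the edge of the window. The downstream loss, 137.7 kb after the TSS, lay below both medians of the body, with 37.4% in infants and 8.02% in young adults.

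The gain lay 58.3 kb before the TSS and was the sole DMR of the locus with a higher level in young adults. Its 4 CpGs in 96 bp had a level of 42.5% in infants and 70.1% in young adults, a difference of 27.6 percentage points. Over all 9911 gains the median difference was 20.4 percentage points, the median infant level 54.8% and the median young adult level 78.1%. In both groups its level was thus below that median, and its difference was above the upper quartile of 26.1. The study had designed a MassARRAY amplicon, a mass spectrometry assay of methylation, for this place. Its bisulfite primers, printed here because they show which CpGs that assay covers, matched the converted minus strand of the chromosome once each.
Forward primer: GTTTTTAAAAGTAGTAAGTGTATGG
Reverse primer: AATAACAAAACCTAATCCATTCTTC
The amplicon spans chr10:99957466-99957749, which is 284 bp with 6 CpGs, and contains the whole gain. The values of that assay were not analysed here.

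Outside the window the nearest DMRs lay unequally far away. The nearest upstream was a loss 2.86 kb beyond the edge, in *Gm35437*, with 42.0% in infants and 16.2% in young adults, and the nearest downstream a gain 522.4 kb beyond it, with 51.7% in infants and 66.9% in young adults. The first DMR inside was 15.4 kb from the upstream edge and the last was 46.9 kb from the downstream edge. The authors' annotation gave the *Kitl* promoter as the nearest for 47 of the 47 DMRs, and for 48 DMRs in the whole list. *Kitl* was the only protein-coding gene in the window. The pseudogene *Gm17870* and the long noncoding RNA *Gm35533* lie in its flanks, and neither held a DMR. The nearest protein-coding genes were *Csl*, 256.2 kb upstream, and the predicted gene *Gm4301*, 235.3 kb downstream, also without a DMR in the body.

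Set beside all losses, those in *Kitl* were higher in both groups, and the difference was of about the usual size. The median over all 8422 losses was 61.5% in infants and 25.4% in young adults, with a median difference of -32.5 percentage points and an interquartile range from -38.4 to -26.6. Of all losses, 79.2% had an infant level below the *Kitl* median and 77.7% had a young adult level below it. Young adult levels under 20% made up 38.1% of all losses and 11.4% of those in the *Kitl* body. Infant levels above 70% made up 33.6% and 70.5%. A larger fall than the largest in *Kitl* was listed for 9.26% of all losses. The other 6788 losses in protein-coding gene bodies had medians of 61.9% and 25.6%, close to those of all losses. Since the 44 DMRs come from 1 locus in the same 6 samples, these are descriptions of position in the list.

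**Figure D3:**
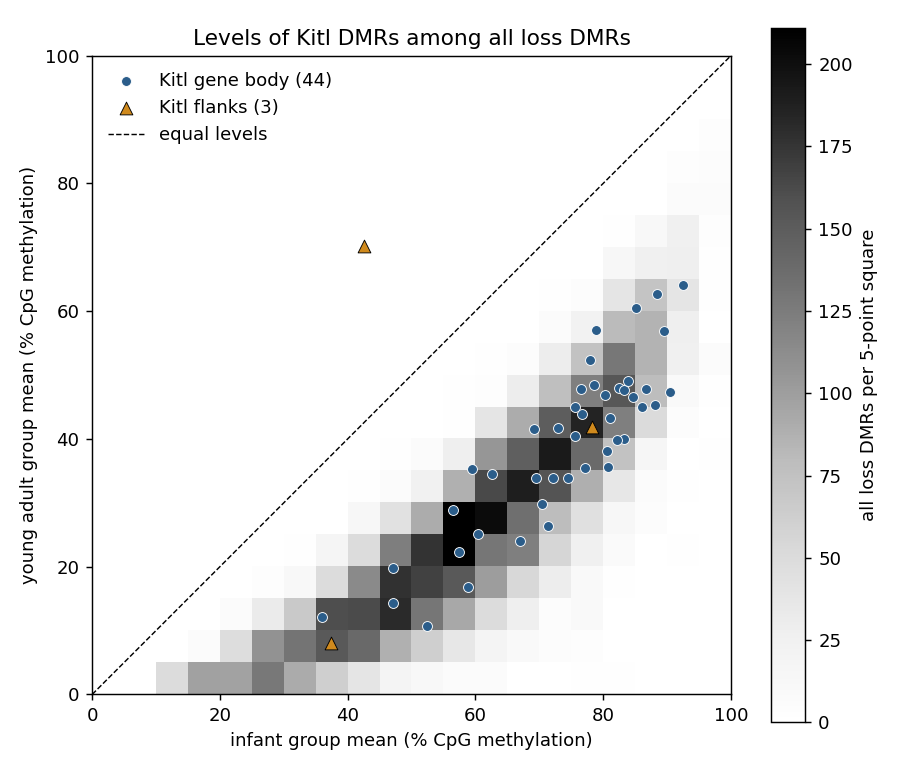
Infant level (x axis, %) against young adult level (y axis, %) of the 44 DMRs of the *Kitl* body (blue circles) and the 3 of its flanks (orange triangles), over the count of all 8422 losses in squares of 5 by 5 percentage points (grey). The circles follow the grey band and crowd at its upper end, with medians of 76.9% and 41.0%, and 1 triangle, the gain, lies above the dashed line of equal levels.

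The *Kitl* losses were also longer and poorer in G and C than the rest. Their median width was 197 bp against 131 bp over all losses, their median number of CpGs 4 against 3, and their median GC content 44.1% against 50.4%. The gene body as a whole had a GC content of 41.1%. CpGs were sparse in them, with a median of 2.29 per 100 bp against 2.94 over all losses. DMRs of exactly 3 CpGs, the fewest that the authors listed, were 20 of the 44 in *Kitl* (45.5%) and 52.5% of all losses. A share of 45.5% of the *Kitl* losses touched a repeat-masked base, against 44.9% of all losses. Repeats were unevenly spread in the gene: 15 of the 23 DMRs of intron 1 touched one and 2 of the 12 of intron 2.

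Short motifs of transcription factor families known from EC were counted in the 200 bp around the midpoint of each body DMR, on both strands. Windows of close DMRs overlap, so 1 motif can count in more than 1 of them. The GATA letters AGATAA were in 10 of the 44 windows (22.7%), against 13.8% of all losses, and the AP-1 letters TGANTCA in 5 (11.4%), against 6.87%. The ETS letters AGGAAG were in 10 windows (22.7%, against 29.2%), the FOX letters TAAACA in 6 (13.6%, against 19.2%), the SMAD letters CAGAC in 13 (29.5%, against 42.5%) and the E-box CACGTG in 2 (4.55%, against 4.77%). The KLF letters CCACCC were in 0 of the 44 windows, against 17.5% of all losses. GC content differs between *Kitl* and the other losses, as given above, and its part in these shares was not tested. Of the sequences printed above, the upstream loss holds AGATAA, the DMR of the largest difference holds CAGAC, and the downstream loss holds TGANTCA. The downstream loss also holds CAGAC on the strand that is not printed. Such a match is a run of letters and does not show binding.

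Over 21000 protein-coding genes, *Kitl* had rank 9 by losses in the body and rank 10 by losses in the body with flanks. At least 1 loss lay in the body of 9.85% of the genes, at least 1 gain in that of 12.6%, and 20 or more losses in that of 0.19%, which is 40 genes. Per 10 kb of gene *Kitl* had 5.20 losses, which was rank 36 of all genes and rank 12 of those of at least 20 kb. The gain in its flank was common by comparison: 48.7% of the genes had at least 1 gain in the flanks, although the median gene had 0. In the body or flanks, 53.5% of the genes had at least 1 gain, and the median gene had 1. A loss in the body or flanks was found for 36.3% of the genes.

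Among the 40 genes with 20 or more losses in the body, *Kitl* combined a dense run of losses with high remaining levels. It ranked sixth by losses per 10 kb and second by losses per 100 CpGs, with 5.12 against a median of 2.16 over the 40 genes. *Calcrl*, which encodes the calcitonin receptor-like receptor of adrenomedullin signalling, had 5.84 and ranked first. In *Calcrl* the median young adult level of the losses was 7.80%, the lowest of the 40 genes, whereas in *Kitl* it was 41.0%, the third highest after those of *Aff3* and *Prickle1*. The median infant level in *Kitl* was likewise the third highest, after those of *Rcsd1* and *Prickle1*. By the size of the median fall *Kitl* stood in the middle, at rank 16 from the largest. In 36 of the 40 genes, *Kitl* included, the body held no gain.

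**Figure D4:**
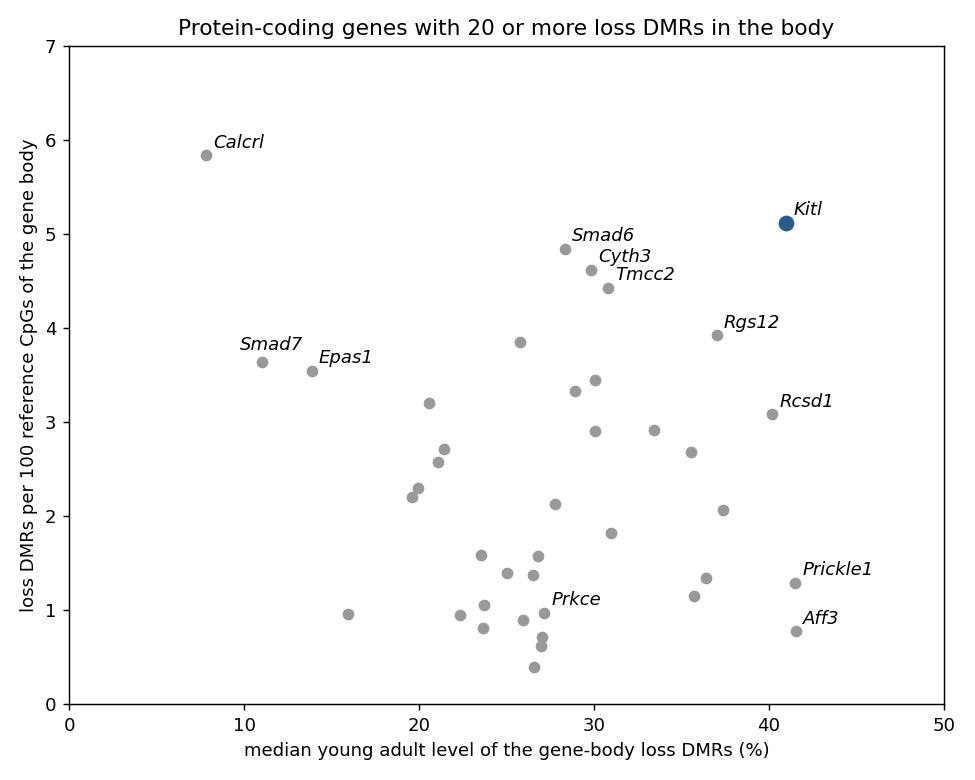
Losses per 100 CpGs of the gene body (y axis) against the median young adult level of those losses in % (x axis) for the 40 protein-coding genes with 20 or more losses in the body, each gene 1 point and *Kitl* in blue. *Kitl* sits at the upper right with 5.12 and 41.0%, and *Calcrl* at the upper left with 5.84 and 7.80%.

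By the rule set for the genes most like *Kitl*, the most gains in the body with flanks among genes with no more losses than *Kitl*, the 5 genes were *Hoxb1*, *Hoxb2*, *Hoxb3*, *Hoxb4* and *Hoxb5*, with 31 to 37 gains each. They are neighbours on chromosome 11, their windows share DMRs, and none resembles *Kitl*, since their bodies held 0 or 1 loss. A second measure, chosen after the values were seen, summed the distances in the number of losses and gains in the body and in the flanks. It gave *Epas1*, *Aff3*, *Sema6a*, *Pitpnc1* and *Rgs12*. *Epas1*, which encodes the hypoxia-inducible factor HIF-2 alpha, was nearest, with 46 losses and 0 gains in the body and 2 of each in the flanks, in a gene of 79.5 kb. Its losses had a median of 54.0% in infants and 13.9% in young adults, lower than in *Kitl* in both groups. *Rgs12*, a regulator of G protein signalling of 84.1 kb, had 35 losses in the body with medians of 74.7% and 37.0%.

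The other ligands of the class III receptor tyrosine kinases, the family of Kit, held 0 to 3 DMRs in the body. Apart from *Kitl*, which defined the locus, *Pdgfb* was the sole one of the 8 ligands with a loss in the body. *Il34* and *Pdgfa* held a gain there. Over all protein-coding genes the shares were 9.85% for a loss and 12.6% for a gain, and so few ligands give no share to read. *Pdgfb*, the platelet-derived growth factor that EC use to recruit pericytes, had 3 losses in its body (median 43.5% in infants and 21.9% in young adults) and 4 gains in its flanks. The body of *Csf1*, which encodes the macrophage colony-stimulating factor, held none, and its flanks held 4 losses and 1 gain. The gene of the Flt3 ligand, *Flt3l*, had 3 gains in its flanks, and *Pdgfa* had 1 gain in its body and 3 in its flanks.

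*Kit*, the receptor of the ligand, went the opposite way, with 3 gains in its body, 4 in its flanks and 0 losses (median difference of the 7 gains 17.3 percentage points). Of the 5 class III receptors it was the sole one with a DMR in the body, where 16837 of the 21000 protein-coding genes held none. Of the 20 genes of Kit and its signalling, 10 held a loss in the body and 4 a gain, beside 9.85% and 12.6% of all protein-coding genes. Genes differ in length and coverage, and no test compares the list with others.

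Downstream of Kit, *Stat5b*, a transcription factor that cytokine receptors activate, had the most losses, 9 in its body with medians of 59.1% in infants and 30.3% in young adults. Its neighbours on chromosome 11, *Stat3* and *Stat5a*, had 3 and 0 in theirs, with 10 and 12 losses and 3 gains each in flanks that overlap. The flanks of *Stat5a* take in the bodies of *Stat5b* and *Stat3*, and those of *Stat3* reach into *Stat5b*. The same losses are thus counted more than once. *Lyn*, a Src family kinase that binds Kit, had 5 losses in its body, *Pik3r1*, the regulatory subunit of phosphoinositide 3-kinase, had 4, and the adaptor *Grb2* had 3. *Jak2* had 2 losses in its body. *Crk*, *Gab1* and *Mapk3* had 1 each in theirs, with 6, 1 and 2 more losses in their flanks. *Fyn*, another Src family kinase, had 1 loss and 6 gains in its body. *Src* held 1 gain in its body, and *Akt1* held no DMR in its own and 3 gains in its flanks.

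More limiters of Kit signalling held a gain in the flanks than in the body, as did all protein-coding genes (48.7% against 12.6%). Of the 11 genes, 2 held a loss in the body and 3 a gain, beside 9.85% and 12.6% of all protein-coding genes. In the body or flanks, 8 had a loss and 10 a gain, beside 36.3% and 53.5% of all genes. *Spry1* and *Spry4*, inhibitors of receptor tyrosine kinase signalling, had 9 gains each in their flanks, with a median difference of 27.8 and 25.1 percentage points. *Spry2* had 1 gain in its body and 2 in its flanks. *Socs1*, *Ptpn6* and *Dusp6*, which encode a suppressor of cytokine signalling and phosphatases, each had 3 gains in their flanks and no DMR in the body, with 3 losses in those of *Dusp6* and 1 in those of *Ptpn6*. *Sh2b3*, an adaptor that dampens cytokine receptor signalling, had 3 losses and 2 gains in its flanks. The lipid phosphatase gene *Inpp5d* held 3 of each in its body, and the ubiquitin ligase gene *Cblb* held 2 losses and 1 gain.

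**Figure D5:**
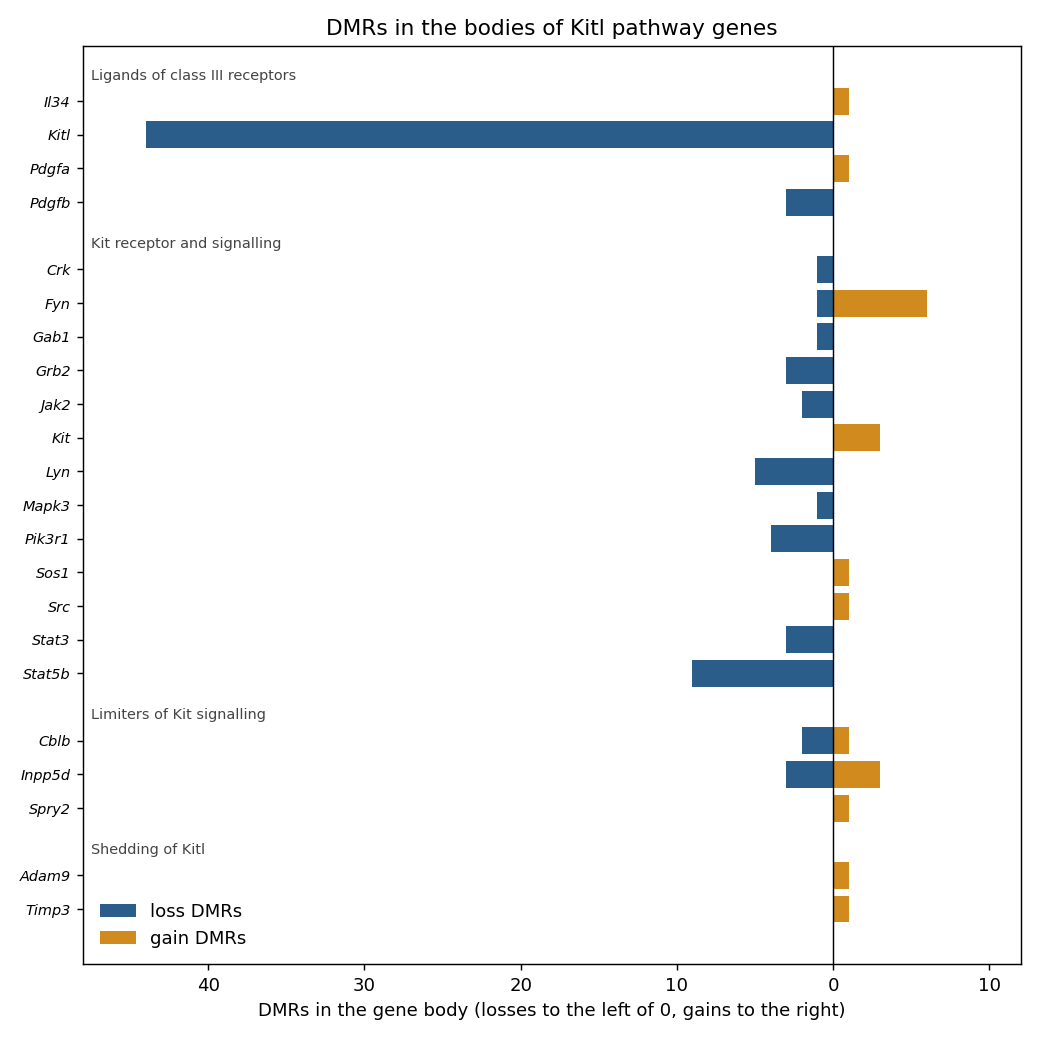
Number of loss DMRs (blue, to the left of 0) and gain DMRs (orange, to the right) in the body of each listed gene around *Kitl* that held at least 1 there, grouped by role, with *Kit* drawn once, under signalling. The bar of *Kitl* reaches 44 losses, the next is *Stat5b* with 9, and *Kit* has 3 gains and 0 losses.

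Of the 5 genes of proteases and an inhibitor tied to shedding of the ligand, 0 had a loss in the body and 2 a gain, beside the same 9.85% and 12.6%, and 5 genes are too few to read a share from. *Timp3*, the inhibitor of metalloproteinases, had 1 gain in its body and 5 in its flanks, and the protease gene *Adam10* had 1 loss and 2 gains in its flanks. Of 18 other factors by which EC support stem cells, 2 held a loss in the body (11.1%) and 6 a gain (33.3%), beside 9.85% and 12.6% of all protein-coding genes, so that the share with a loss was near that of all genes. *Dll4*, a Notch ligand of EC, had 5 losses in its 9.88 kb (median 57.5% in infants and 23.1% in young adults) and 6 gains in its flanks. *Jag2*, another Notch ligand, had 2 losses in the body and 1 loss and 4 gains in its flanks, and *Dll1* had 1 gain in its body and 6 in its flanks. *Pgf*, the placental growth factor, had 4 gains in its body, and *Lif* and *Angpt1*, a cytokine and the ligand of the receptor Tie2, had 2 each. *Angptl2* had 1 gain in its body and 4 in its flanks. The bodies of *Vcam1*, the vascular adhesion molecule, and *Csf3*, the granulocyte colony-stimulating factor, held no DMR, and their flanks held 6 and 4 losses. *Cxcl12*, the chemokine that retains stem cells in the niche, had no DMR in its body or flanks.

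A list of DMRs cannot show whether a sample expressed the markers of its cell type, so the markers are given by their DMRs. Of 10 EC markers, 6 held a loss in the body, beside 9.85% of all protein-coding genes. *Pecam1* (CD31), *Cdh5* and *Erg* held 15 each, *Kdr* held 4 with 9 gains in its flanks, and *Emcn* and *Tek* held 1 each. *Cd34*, *Cldn5*, *Ramp2* and *Tie1* held none in the body. Of 5 blood cell markers 0 held a loss and 1 a gain in the body, beside 9.85% and 12.6% of all protein-coding genes. Of the 3 lymphatic markers 0 held either in the body, although the flanks of *Lyve1* held 13 losses. Of 4 epithelial and 4 mesenchymal markers, *Cdh1* held 1 loss and *Acta2* 1 gain in the body. At these shares of all genes, lists of 3 to 5 markers are too short to set against the EC markers. The list does not measure the share of other cells in a sample, and the part of such cells in the levels of *Kitl* was not tested.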

How the data were processed

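T-WGBS libraries were made from 30 ng of DNA of sorted lung EC of 3 infant and 3 young adult mice per the labels and the study's methods. The authors trimmed reads with SeqPrep, aligned them with BWA 0.6.1 to in silico converted mm10, removed duplicates with Picard, used bases of quality of at least 20 and left out 9 bp at tagmented read ends. With bsseq, unsmoothed, in R 3.2.2, a CpG needed a coverage of 8 or more in at least 2 samples of a group, and a DMR was a run of 3 or more CpGs, all under 0.05 in a t-test, with group means 10% or more apart. The authors deposited a mean methylation fraction per DMR and group, without values per sample or depth. The sizes are thus those of regions selected on these samples, and low coverage can leave CpGs out.

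Here fractions were turned into percent, and the young adult minus the infant mean was taken. The listed start and end were each, counted from 0, the C of a CpG in 18333 of 18333 DMRs, and positions are printed counted from 1, from the first C to the last G. DMRs were placed by the midpoint of the listed positions. Genes, exons and sequences came from RefSeq for GRCm38, with the *Kitl* transcript NM_013598.3 (10 exons) and 21000 protein-coding genes with curated transcripts. Counting was tested on simulated lists, and 200 of 200 genes got the number planted. No test was run, since the listed group means came without the spread between samples. Python 3.11.15, pysam 0.24.0, pandas 2.3.3 and scipy 1.17.1 were used. Alternatives were another difference threshold, number of CpGs, flank length and placement, joining of close DMRs, and weighting by CpGs. The members, gene lists and measures were chosen with earlier results of these data known. Genes named are those in the window, the nearest protein-coding gene on each side, list members with at least 3 DMRs in the body with flanks, and the 5 most like *Kitl* by gains, and others were named after their values were seen.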

Additional observations from a re-analysis of the deposited data

How the results depend on the processing

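No paired analysis was possible because the list holds group means only, with no value per sample, and leaving out a sample was not possible for the same reason. Stricter thresholds and joining only remove or merge DMRs, and the nearest gain lay 58.3 kb before the TSS. The body thus held 0 gains in each setting, a count that none of them could raise. Its losses numbered 44 with a difference of at least 20 percentage points or with placement by overlap, 30 after joining DMRs within 500 bp, and 24 among DMRs of at least 4 CpGs, a setting that drops the 20 DMRs of 3 CpGs and leaves 1 flank loss. The median difference of the body stayed between -35.1 and -35.0 percentage points, and the mean weighted by CpGs was -35.2. With flanks of 50 kb the flanks held 0 losses and 0 gains, and with 200 kb they held 3 losses and 2 gains. The share of genes with as many gains as *Kitl* or more was 53.5%. With flanks of 50 kb, where *Kitl* has none, every gene counts and the share became 100%. The share was 34.0% with a difference of at least 20 points and 18.3% with at least 4 CpGs, since fewer gains then count. In alternatives chosen after seeing the data, the rank of *Kitl* by the number of body losses was 7 or 9. By losses per 10 kb among genes of at least 20 kb it was 12. The rank of 36 per 10 kb over all genes is not among the alternatives counted next. Of the alternative values, 36 stayed within 1.5 times of the value reported and 8 did not. The 36 include values that a setting could not move, such as the 0 gains of the body. Depth per DMR is unknown and limits each level by an unknown amount.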
